A study of Homo sapiens with 12 samples.

Results

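The 10 genes described here handle the uptake, storage, release and export of iron and its sensing: TFRC, STEAP3, SLC11A2, SLC39A14, FTH1, FTL, NCOA4, SLC40A1, IREB2 and ACO1. They were taken by gene symbol, through the Ensembl identifiers of the deposited table, and make up 10 of its 58233 genes. All 10 were present in the table, and 9 passed the filter on low counts. SLC40A1 was listed at 0 in every library and was not tested. The study measured polyA RNA in MCF10-A, a human mammary epithelial cell line that is not tumorigenic, and its title names the integrin α6β4 in detached cells as its subject. The 12 libraries came from 3 derivatives labelled Vector, B4-4 and Addback, each labelled with the treatment NA or EDTA, which gives 6 groups of 2 libraries. All groups shared the same handling: cells grown with 5% horse serum were trypsinized and then kept detached, without serum, for 3 hours on a poly-HEMA coating to which cells do not stick. EDTA is a chelator of divalent metal ions. The sources used here do not give the meaning of NA, the dose and timing of EDTA, the making of B4-4 and Addback, or whether each derivative is 1 clone. The libraries of a group are numbered as replicates and no separate cultures are named, so the p-values cover only the spread of these samples and that spread may be technical.

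Cells take up most of their iron as transferrin, which binds the transferrin receptor at the surface and is carried into endosomes, where ferric iron is released, reduced by a STEAP enzyme and moved into the cytosol by a divalent metal transporter. Iron that is not used is stored inside ferritin, a shell of heavy (FTH1) and light (FTL) chains, is set free again when NCOA4 carries ferritin to the lysosome, and leaves the cell through ferroportin (SLC40A1). The 2 iron regulatory proteins, ACO1 (IRP1) and IREB2 (IRP2), bind hairpins called iron-responsive elements in the mRNAs of some of these genes when iron is low. Binding in the 5′ untranslated region blocks translation, as in ferritin, and binding in the 3′ untranslated region protects the mRNA from decay, as in TFRC. RNA counts therefore read the TFRC arm of this control more directly than the ferritin arm, and in a bulk sample fewer cells of a type and less RNA per cell cannot be told apart.

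Sites with the shape of an iron-responsive element are shown because they are the kind of sequence the 2 regulators bind. The form searched in the protein-coding transcripts of GENCODE 29 (GRCh38) was a C, 5 bases, CAGTGN and 5 bases, with the 2 runs of 5 bases able to pair. It was found in 291 of 19684 protein-coding genes (1.48%). Capitals mark the 6-base loop in each 30-base site, written 5′ to 3′ in the sense of the mRNA. TFRC held 4 sites of this form in its 3′ untranslated region, while FTL and SLC40A1 each held 1 in the 5′ untranslated region.
TFRC, chr3:196050978-196051007, reverse strand: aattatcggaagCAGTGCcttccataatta
TFRC, chr3:196050574-196050603, reverse strand: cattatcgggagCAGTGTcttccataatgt
TFRC, chr3:196050509-196050538, reverse strand: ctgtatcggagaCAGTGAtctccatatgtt
TFRC, chr3:196050462-196050491, reverse strand: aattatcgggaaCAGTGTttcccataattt
FTL, chr19:48965335-48965364, forward strand: ctcttgcttcaaCAGTGTttggacggaaca
SLC40A1, chr2:189580660-189580689, reverse strand: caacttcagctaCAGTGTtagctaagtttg
FTH1 was not analysed here for such sites. The other 6 members, SLC11A2 among them, gave no match to this strict form, which says only that these letters are not in their annotated transcripts and not that the regulators do not bind them. A match describes the sequence and was not tested as a binding site.

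Library totals ran from 15685376 to 22156173 counts, and the lowest count of a tested member in any library was 663, for SLC11A2. ITGB4, the β4 subunit of the integrin, served as a check of the derivative labels: it stood at 1678 to 1850.3 CPM (the usual depth-scaled count, here with TMM-adjusted library totals) in the 4 Vector libraries, at 182 to 395 in the 4 B4-4 libraries and at 1059.7 to 1525 in the 4 Addback libraries. For B4-4 against Vector under NA, ITGB4 was called in the fit of all groups. In the 4 compared libraries alone it was not (log2 -2.64, adjusted p = 0.131 in edgeR's quasi-likelihood test). The 2 libraries of a group lay close together in Vector NA (biological coefficient of variation 3%), B4-4 EDTA (4.19%) and Addback NA (5.85%), and further apart in Vector EDTA (10.2%), Addback EDTA (18.8%) and B4-4 NA (24.1%). Markers of basal mammary epithelium summed to between 8425 and 14116 CPM, with KRT5 at 4319 to 6782 CPM. Other genes of that list moved further: KRT14 from 658 (Addback NA 1) to 2379 (Vector NA 2), KRT17 from 935 (Addback NA 2) to 3421 (B4-4 NA 2) and LAMB3 from 422 (Vector EDTA 1) to 2518 (B4-4 EDTA 2). The 4 macrophage markers summed to 19.9 to 62.6 CPM, nearly all from CD14 and CSF1R, with 2 counts of CD163 and 6 of PTPRC over all libraries. CD14 was lowest in B4-4 EDTA 1 (7.08) and highest in Addback NA 1 (54.6), the library with the most TFRC and FTH1, whereas CSF1R was lowest in Addback NA 2 (7.75) and highest in B4-4 EDTA 1 (20.5). The part of any of these markers in the results was not tested. Of the erythroid markers, HBB was at 0 in every library and the sum of the list reached 0.574 CPM. The 2 hepatocyte markers reached 0.287 CPM together, and the 4 fibroblast markers ran from 11.9 CPM (B4-4 EDTA 1) to 63.1 CPM (Addback EDTA 2), where DCN alone reached 51.9. The description label of Addback EDTA 2 also ends differently from those of the 11 other libraries, and the labels do not say what the ending means. Without that library 5 of the 57 member calls over the 12 comparisons were lost and 5 were gained.

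Per kilobase of merged exon length, the ferritin chains stood far above the other members in every library, as the plot of the order of levels shows. FTH1 averaged 498 CPM per kilobase over the 12 libraries (range 333 to 744) and FTL 494 (287 to 751), so the 2 chains were not separated by this measure. NCOA4 followed at 71.3 (55.5 to 89.1), TFRC at 43.6 (11.7 to 89.1), SLC39A14 at 31.3 (19.8 to 37.6) and STEAP3 at 24 (15.3 to 34.9). Each of these 4 overlapped its neighbour in the order and all lay below the ferritin chains. By mean they lay above the sensors, although TFRC in its lowest libraries fell within the range of ACO1. ACO1 averaged 10.1 (8.7 to 12.7), IREB2 7.55 (6.33 to 9.53) and SLC11A2 4.61 (3.68 to 6.15). The ranges of ACO1 and IREB2 overlapped, and SLC11A2 was the lowest of the 9 in this order. The order depends on the length used, which takes in the exons of all annotated transcripts (2030 bases for FTH1, 878 for FTL). Which transcripts were present was not measured. In CPM without division by length, FTH1 averaged 1011 and FTL 434. TFRC varied most, with 7.59 times as much in the highest library (Addback NA 1) as in the lowest (Vector NA 2), against 1.46 times for ACO1, which varied least.

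**Figure D1:**
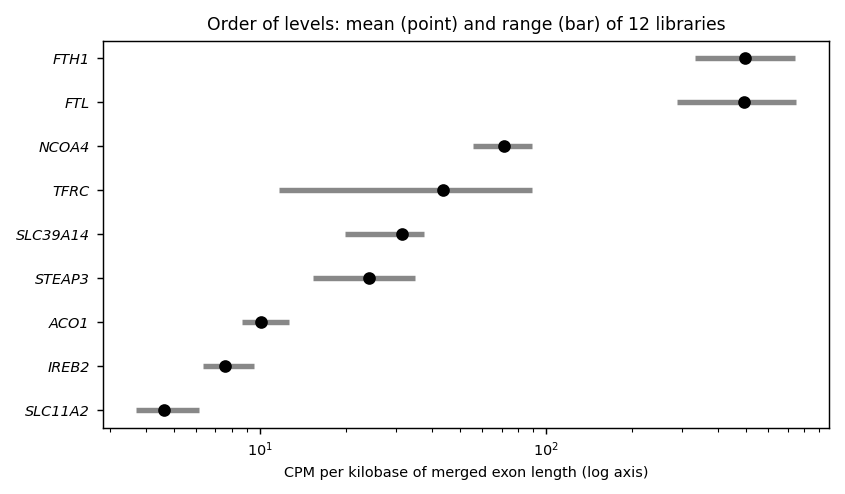
Level of the 9 tested iron genes, as CPM per kilobase of merged exon length on a log axis. Points are means of 12 libraries and bars run from the lowest to the highest library, from FTH1 at 498 down to SLC11A2 at 4.61, with the widest bar for TFRC.

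TFRC, the transferrin receptor (ENSG00000072274, chromosome 3, 196027183 to 196082189, reverse strand), stood at 96.2 and 92.6 CPM in Vector NA, against 170.1 and 156.0 in Vector EDTA. B4-4 NA libraries held 296 and 203 CPM of TFRC, and B4-4 EDTA libraries 429 and 431. In Addback, TFRC was at 703 and 688 CPM in NA and at 427 and 435 in EDTA. The lowest pair was thus Vector NA and the highest Addback NA, and no 2 groups overlapped except B4-4 EDTA and Addback EDTA. STEAP3, the endosomal ferrireductase (ENSG00000115107, chromosome 2, 119223831 to 119265652, forward strand), was at 104 and 112 CPM in Vector NA, against 139.9 and 159 in Vector EDTA. Its B4-4 libraries held 117 and 85.8 CPM in NA and 94.8 and 103 in EDTA, and its Addback libraries 114 and 118 in NA and 97.9 and 69.6 in EDTA. Vector EDTA was above every other library for STEAP3, and the NA and EDTA pairs overlapped in B4-4 but not in Addback.

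SLC11A2, the divalent metal transporter DMT1 (ENSG00000110911, chromosome 12, 50979401 to 51028566, reverse strand), was at 48.1 and 47.4 CPM in Vector NA, against 39.3 and 37.4 in Vector EDTA. B4-4 held 42.8 and 42.3 CPM of SLC11A2 in NA and 44.5 and 46.3 in EDTA, and Addback 62.4 and 61.9 in NA and 40.9 and 48.0 in EDTA. Addback NA was the highest pair and Vector EDTA the lowest. SLC39A14, the transporter ZIP14 for iron not bound to transferrin and for zinc and manganese (ENSG00000104635, chromosome 8, 22367249 to 22434129, forward strand), was at 161 and 155 CPM in Vector NA, against 261 and 257 in Vector EDTA. In B4-4 it stood at 236 and 218 CPM in NA and at 248 and 250.3 in EDTA, and in Addback at 247 and 256 in NA and at 138 and 180.3 in EDTA. Vector NA and Addback EDTA were the 2 low groups for SLC39A14 and overlapped each other, and every other library was at 218 CPM or above.

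**Figure D2:**
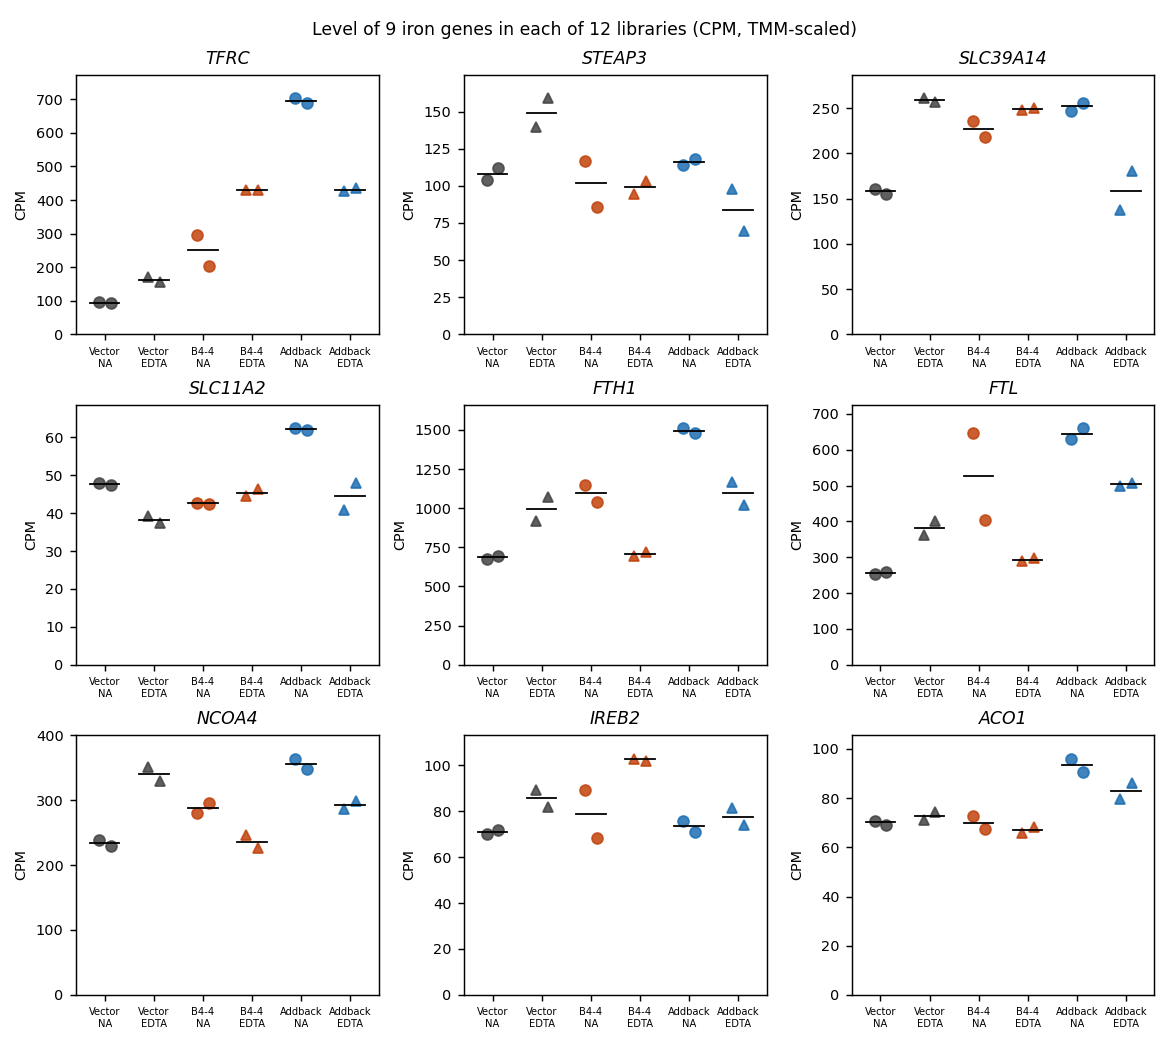
CPM of the 9 tested iron genes in each of the 12 libraries (circles NA, triangles EDTA; grey Vector, orange B4-4, blue Addback; horizontal lines are group means, n = 2), with every vertical axis starting at 0. EDTA lies above NA in Vector and below it in Addback for TFRC, SLC39A14, FTH1, FTL and NCOA4, and Addback NA holds the highest TFRC, FTH1 and SLC11A2.

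FTH1, the ferritin heavy chain, which oxidises iron as it enters the shell (ENSG00000167996, chromosome 11, 61959718 to 61967660, reverse strand), was at 676 and 696 CPM in Vector NA, against 919 and 1071 in Vector EDTA. B4-4 held 1146 and 1041 CPM of FTH1 in NA and 692 and 718 in EDTA, and Addback 1510.3 and 1479.6 in NA and 1168 and 1019.7 in EDTA. B4-4 EDTA therefore lay with Vector NA at the low end, and Addback NA stood alone at the top. FTL, the light chain, which helps build the mineral core (ENSG00000087086, chromosome 19, 48965301 to 48966878, forward strand), was at 252 and 259 CPM in Vector NA, against 361 and 401 in Vector EDTA. The 2 B4-4 NA libraries of FTL differed, at 648 and 405 CPM, and B4-4 EDTA held 288 and 298. Addback held 629.8 and 659.6 CPM of FTL in NA and 499 and 508 in EDTA. Vector NA was again lowest, B4-4 NA 1 reached the Addback NA level and B4-4 NA 2 did not.

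The table holds 25 pseudogenes of FTH1, whose counts sum to 6899, or 3.07% of the FTH1 count over all libraries, and per library to between 2.14% and 5.09% (highest in Addback EDTA 2). The 16 FTL pseudogenes held 183 counts, or 0.19% of FTL. The sources used here do not say how reads shared by such copies were counted, so ferritin counts may hold or miss some of them. BEST1, on the opposite strand, overlaps FTH1 over 1267 bases and held 115 counts against 224914 for FTH1, and STEAP3-AS1 overlaps STEAP3 over 500 bases and held 75 counts against 24901.

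NCOA4, the receptor that delivers ferritin to the lysosome (ENSG00000266412, chromosome 10, 46005088 to 46030714, reverse strand), was at 238 and 229.6 CPM in Vector NA, against 351 and 329 in Vector EDTA. B4-4 held 279.9 and 295 CPM of NCOA4 in NA and 246 and 226 in EDTA, and Addback 364 and 348 in NA and 286 and 298 in EDTA. Vector EDTA and Addback NA were the high groups, and Vector NA and B4-4 EDTA the low ones. SLC40A1, the exporter ferroportin (ENSG00000138449, chromosome 2, 189560579 to 189583758, reverse strand), was listed at 0 in all 12 libraries, which by counting error alone allows up to 0.133 to 0.192 CPM per library from a limit of 3 counts. This zero is not evidence of absent transcript: 2791 of 19791 protein-coding genes (14.1%) and all 37 mitochondrial genes were also at 0 in every library, and the sources used here name no filter behind the table.

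IREB2, the regulator IRP2 (ENSG00000136381, chromosome 15, 78437431 to 78501456, forward strand), was at 70.3 and 71.9 CPM in Vector NA, against 89.3 and 82.0 in Vector EDTA. B4-4 held 89.3 and 68.4 CPM of IREB2 in NA and 103 and 102 in EDTA, and Addback 75.9 and 71.1 in NA and 81.3 and 74.0 in EDTA. B4-4 EDTA was the highest pair, and the Addback pairs overlapped. ACO1, the regulator IRP1, which is a cytosolic aconitase when it carries an iron-sulfur cluster (ENSG00000122729, chromosome 9, 32384603 to 32454769, forward strand), was at 70.9 and 69.2 CPM in Vector NA, against 71.1 and 74.2 in Vector EDTA. In B4-4 it stood at 72.6 and 67.4 CPM in NA and 65.7 and 68.3 in EDTA, and in Addback at 96.1 and 90.7 in NA and 79.8 and 86.0 in EDTA. The 4 Addback libraries held more ACO1 than any of the other 8.

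EDTA was compared with NA within each derivative, and the direction for the same genes differed between derivatives. In Vector, receptor, importer, ferritin chains and ferritin receptor (TFRC, SLC39A14, FTH1, FTL and NCOA4) all rose with EDTA. In B4-4, TFRC and IREB2 rose while FTH1, FTL and NCOA4 fell, although none of these changes passed in the B4-4 libraries alone. In Addback, TFRC, FTH1, SLC39A14, SLC11A2 and NCOA4 fell and none rose. A gene was called at a Benjamini-Hochberg adjusted p under 0.05 in edgeR's quasi-likelihood test over 15749 genes, and fold changes are fitted values with their standard errors on the log2 scale.

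In Vector, 5 of the 9 tested members were higher with EDTA and 0 lower, against 15.3% of all tested genes called, 6.36% higher and 8.98% lower. The members' median log2 change was 0.54, beside 0.0 for all genes. TFRC rose 1.73-fold (log2 0.79, SE 0.14, adjusted p = 0.00283), SLC39A14 1.64-fold (log2 0.71, SE 0.11, adjusted p = 0.00168) and NCOA4 1.46-fold (log2 0.54, SE 0.087, adjusted p = 0.00169). These 3 held in every alternative and without any single library. FTH1 rose 1.45-fold (log2 0.54, SE 0.10, adjusted p = 0.00426), which was lost without Vector NA 1 (0.0676) or Vector NA 2 (0.055). FTL rose 1.49-fold (log2 0.58, SE 0.16, adjusted p = 0.0343), which was lost without any one of the 8 libraries of Vector NA, Vector EDTA, B4-4 EDTA and Addback NA (adjusted p from 0.0563 to 0.194). STEAP3 had a log2 change of 0.47 (SE 0.17, adjusted p = 0.0763), SLC11A2 of -0.32 (SE 0.10, adjusted p = 0.0547) and IREB2 of 0.27 (SE 0.12, adjusted p = 0.157). None of these 3 passed, but all 3 passed when the 4 Vector libraries were fitted alone (0.00376, 0.0224 and 0.0322). They also passed without either B4-4 NA library (0.0227 to 0.029), and STEAP3 and SLC11A2 without either Addback EDTA library (0.0297 to 0.0337). STEAP3 passed as well with DESeq2 (0.0479) and without the filter on low counts (0.00304). ACO1 did not pass, at 0.05 (adjusted p = 0.743).

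In B4-4, 2 members were higher with EDTA and 3 lower, against 19.9% of all tested genes called (9.88% higher, 10% lower), and the members' median log2 change was -0.04 beside -0.01 for all genes. TFRC rose 1.72-fold (log2 0.78, SE 0.14, adjusted p = 0.00295), and its change ran from 0.54 to 1.08 when 1 library was left out. FTH1 fell 1.55-fold (log2 -0.63, SE 0.10, adjusted p = 0.00177) and FTL 1.80-fold (log2 -0.85, SE 0.16, adjusted p = 0.00537), the latter lost without B4-4 EDTA 1 (0.0663). Without B4-4 NA 1 the FTL change was -0.47. NCOA4 fell 1.22-fold (log2 -0.28, SE 0.087, adjusted p = 0.0394), lost without any one of the libraries of Vector NA, B4-4 EDTA and Addback NA or B4-4 NA 2 (adjusted p from 0.0554 to 0.255), and without the filter on low counts (0.0828). IREB2 rose 1.30-fold (log2 0.38, SE 0.12, adjusted p = 0.0445), lost without any one of the libraries of Vector NA, Vector EDTA, B4-4 EDTA and Addback NA or B4-4 NA 2 (0.0535 to 0.213), with the relative log expression scaling (0.0518) and with upper-quartile factors (0.0854). The IREB2 change was 0.58 without B4-4 NA 1 and 0.20 without B4-4 NA 2. All 5 calls rest on the spread shared over the 6 groups. With the 4 B4-4 libraries alone none passed, at adjusted p 0.0884 for TFRC, 0.0549 for FTH1, 0.0969 for FTL, 0.161 for NCOA4 and 0.213 for IREB2. The 2 B4-4 NA libraries, which are the pair furthest apart, lay on 1 side of both B4-4 EDTA libraries for each of these 5 genes. SLC39A14 and SLC11A2, not called here (adjusted p = 0.423 and 0.552), were separated in the same way. The share of all genes separated like this was not counted, so the separation adds nothing to the calls.

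In Addback, 0 members were higher with EDTA and 5 lower, against 16.9% of all tested genes called, 8.64% higher and 8.29% lower. The members' median log2 change was -0.45, beside 0.01 for all genes. TFRC fell 1.61-fold (log2 -0.69, SE 0.14, adjusted p = 0.00584), a call lost without Addback NA 1. SLC39A14 fell 1.58-fold (log2 -0.66, SE 0.11, adjusted p = 0.00279), and its change ran from -0.87 to -0.48 when 1 library was left out. FTH1 fell 1.37-fold (log2 -0.45, SE 0.10, adjusted p = 0.0111), lost without Addback NA 1 (0.0918), Addback NA 2 (0.0568) or Addback EDTA 2 (0.0851). SLC11A2 fell 1.4-fold (log2 -0.48, SE 0.10, adjusted p = 0.00811), lost without Addback NA 1 (0.0737) or Addback NA 2 (0.051). NCOA4 fell 1.22-fold (log2 -0.29, SE 0.087, adjusted p = 0.042), lost without any one of the 8 libraries of Vector NA, B4-4 EDTA, Addback NA and Addback EDTA (0.0531 to 0.236), and without the filter on low counts (0.124). FTL had a log2 change of -0.36 (SE 0.16, adjusted p = 0.155) and STEAP3 of -0.47 (SE 0.17, adjusted p = 0.0747), and neither passed. Both passed without B4-4 NA 1 or B4-4 NA 2 (0.003 and 0.00345 for FTL, 0.0285 and 0.0244 for STEAP3), FTL also in the 4 Addback libraries alone (0.0276), and STEAP3 also without Addback EDTA 1 (0.0139) and with DESeq2 (0.0438). Without the filter on low counts both passed (0.0257 and 0.00337). IREB2 and ACO1 stood at 0.08 and -0.17 and did not pass.

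**Figure D3:**
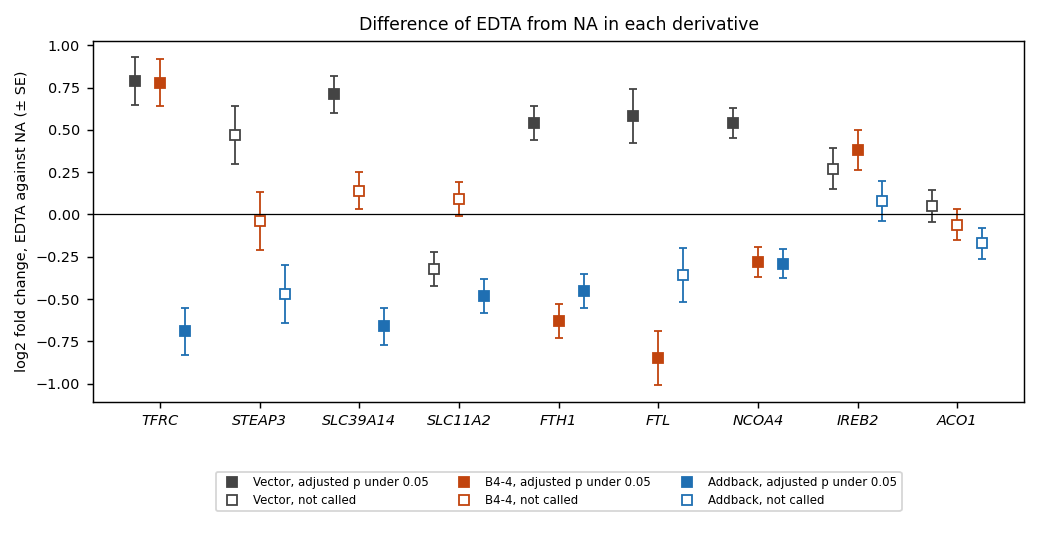
Fitted log2 fold change of EDTA against NA for the 9 tested iron genes in Vector (grey), B4-4 (orange) and Addback (blue). Bars are standard errors and filled squares have an adjusted p under 0.05. In Vector 5 genes are called above 0, in Addback 5 are called below 0, and in B4-4 TFRC and the ferritin chains are called on opposite sides.

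The differences between these EDTA effects were tested as contrasts of their own. They share libraries with one another, so their values stand side by side and are not independent. Between B4-4 and Vector, 4 of 9 members had a lower EDTA effect in B4-4 and 0 a higher one, against 27.0% of all tested genes called, 14.4% higher and 12.6% lower. The members' median difference was -0.51 on the log2 scale beside -0.01 for all genes. The 4 were FTL (-1.42, SE 0.23, adjusted p = 0.00125), FTH1 (-1.17, SE 0.14, adjusted p = 0.000196), NCOA4 (-0.83, SE 0.12, adjusted p = 0.000678) and SLC39A14 (-0.58, SE 0.16, adjusted p = 0.0202). That of SLC39A14 was lost without B4-4 EDTA 1 (0.0589), B4-4 EDTA 2 (0.0668) or Vector NA 2 (0.0701). For TFRC the difference between B4-4 and Vector was -0.01 (SE 0.19, adjusted p = 0.986). It ran from -0.25 to 0.28 when 1 library was left out. SLC11A2 (0.41, adjusted p = 0.0532) passed without B4-4 NA 1 (0.0423), Addback EDTA 1 (0.0291) or Addback EDTA 2 (0.0291), and STEAP3 (-0.51, adjusted p = 0.128) without B4-4 NA 2 (0.0229) and without the filter on low counts (0.0266).

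Between Addback and Vector, 6 of 9 members had a lower EDTA effect in Addback and 0 a higher one, against 24.2% of all tested genes called (13.4% higher, 10.8% lower), with a median difference of -0.93 beside 0.0 for all genes. TFRC differed by -1.48 (SE 0.19, adjusted p = 0.000277), SLC39A14 by -1.38 (SE 0.16, adjusted p = 0.000138), FTH1 by -0.99 (SE 0.14, adjusted p = 0.000505) and NCOA4 by -0.83 (SE 0.12, adjusted p = 0.000607). STEAP3 differed by -0.94 (SE 0.23, adjusted p = 0.0134), lost without Vector NA 1 (0.0669) or Vector EDTA 2 (0.0531), and FTL by -0.93 (SE 0.23, adjusted p = 0.0127), lost without Vector NA 1 (0.0576) or Vector NA 2 (0.0509). Between Addback and B4-4, 3 members had a lower effect in Addback and 0 a higher one, against 8.78% of all tested genes called (4.22% higher, 4.57% lower), with a median of -0.30 beside 0.04 for all genes. All 3 were uptake genes: TFRC (-1.47, SE 0.19, adjusted p = 0.000922), SLC39A14 (-0.80, SE 0.16, adjusted p = 0.0106) and SLC11A2 (-0.58, SE 0.14, adjusted p = 0.0293). The SLC39A14 call was lost without Addback NA 1 (0.0503) or B4-4 EDTA 2 (0.0517). That of SLC11A2 was lost without any one of the libraries of Vector NA, B4-4 EDTA and Addback NA or Addback EDTA 1 (0.0565 to 0.117), and in the 8 libraries of B4-4 and Addback alone (0.0769). For the ferritin chains the difference between Addback and B4-4 was 0.18 for FTH1 (SE 0.14, adjusted p = 0.455) and 0.49 for FTL (SE 0.23, adjusted p = 0.204), the latter passing without B4-4 NA 2 (0.000641) or the filter on low counts (0.0242). IREB2 (-0.30, adjusted p = 0.291) passed without B4-4 NA 1 (0.0155).

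The derivatives were then compared within each treatment. Under NA, TFRC and FTH1 were higher in B4-4 than in Vector and higher again in Addback, and FTL and SLC39A14 were higher in both than in Vector. Under EDTA, TFRC was 2.64-fold above Vector in both B4-4 and Addback, whereas FTH1 and NCOA4 were lower in B4-4 than in either other derivative. SLC39A14 under EDTA was lower in Addback than in Vector or B4-4. These comparisons share libraries pairwise, so the values below are given side by side.

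Under NA, B4-4 had 4 members higher than Vector and 0 lower, against 7.16% of all tested genes called, 3.38% higher and 3.78% lower. The median was 0.30 beside 0.02 for all genes. TFRC was 2.65-fold higher (log2 1.4, SE 0.14, adjusted p = 0.000261) and FTL 2.06-fold (log2 1.04, SE 0.16, adjusted p = 0.00452), with an FTL change of 0.66 without B4-4 NA 1. FTH1 was 1.59-fold higher (log2 0.67, SE 0.10, adjusted p = 0.00372) and SLC39A14 1.44-fold (log2 0.52, SE 0.11, adjusted p = 0.0201). Without Vector NA 1 or Vector NA 2 the calls of FTH1 (0.0745 and 0.0665), FTL (0.0831 and 0.0713) and SLC39A14 (0.125 and 0.17) were lost, and that of TFRC was kept. In the 4 compared libraries alone none passed, at adjusted p 0.135 for TFRC, 0.136 for FTH1, 0.181 for FTL and 0.167 for SLC39A14. NCOA4, at 0.30 (SE 0.087, adjusted p = 0.0584), did not pass, but did with DESeq2 (0.027), with upper-quartile factors (0.0469), and without B4-4 NA 1 (0.0156), Addback EDTA 1 (0.0482) or Addback EDTA 2 (0.048). STEAP3, SLC11A2, IREB2 and ACO1 lay between -0.17 and 0.15 and did not pass.

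Addback under NA had 7 members higher than Vector and 0 lower, against 36.1% of all tested genes called (17.9% higher, 18.1% lower), with a median of 0.61 beside 0.01 for all genes. TFRC was 7.37-fold higher (log2 2.88, SE 0.15, adjusted p = 1e-07), FTL 2.52-fold (log2 1.33, SE 0.16, adjusted p = 0.000111) and FTH1 2.18-fold (log2 1.12, SE 0.10, adjusted p = 1.01e-05). SLC39A14 was 1.59-fold higher (adjusted p = 0.000817), NCOA4 1.52-fold (0.000267), ACO1 1.33-fold (0.00434) and SLC11A2 1.30-fold (0.0118). The SLC11A2 call was lost without Vector NA 1 (0.0543), Vector NA 2 (0.0709), Addback NA 1 (0.0669) or Addback NA 2 (0.0582), and the other 6 held without any single library. IREB2 (0.05) and STEAP3 (0.10) did not pass.

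Against B4-4 under NA, Addback had 5 members higher and 0 lower, against 23.6% of all tested genes called (11.3% higher, 12.3% lower), with a median of 0.31 beside -0.02 for all genes. TFRC was 2.78-fold higher (log2 1.48, SE 0.14, adjusted p = 2.92e-05) and SLC11A2 1.46-fold (log2 0.55, SE 0.10, adjusted p = 0.0028). Weaker calls were those of FTH1 (1.37-fold, adjusted p = 0.00778) and ACO1 (1.33-fold, adjusted p = 0.00759), both lost without Addback NA 1 (0.0621 and 0.077). NCOA4 (1.24-fold, adjusted p = 0.0237) was lost without Addback NA 1 (0.155) or Addback NA 2 (0.0769). In the 4 compared libraries alone FTH1 (0.0761), ACO1 (0.0892) and NCOA4 (0.14) did not pass, and NCOA4 also did not without the filter on low counts (0.074). FTL, at 0.29 (adjusted p = 0.216), passed without B4-4 NA 1 (0.00017), the library in which FTL reached the Addback level.

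Under EDTA, B4-4 had 1 member higher than Vector and 3 lower, against 43.4% of all tested genes called (22.9% higher, 20.4% lower), so the share of members was close to that of all genes. TFRC was 2.64-fold higher (log2 1.4, SE 0.14, adjusted p = 1.53e-05). STEAP3 was 1.51-fold lower (adjusted p = 0.0124), NCOA4 1.44-fold lower (0.000523) and FTH1 1.41-fold lower (0.00197). The STEAP3 call was lost without B4-4 EDTA 1 (0.0976) or Vector EDTA 2 (0.0923). The members' median was -0.12 beside 0.0 for all genes. FTL (-0.38, adjusted p = 0.0774), SLC11A2 (0.24, 0.0703) and IREB2 (0.26, 0.0967) did not pass, but did in the 4 compared libraries alone (0.00172, 0.0488 and 0.0229) and without either B4-4 NA library (0.000675 and 0.000805 for FTL, 0.0471 and 0.0433 for SLC11A2, 0.02 and 0.016 for IREB2). SLC11A2 also passed without Addback EDTA 1 (0.0407) or Addback EDTA 2 (0.0408), and FTL with upper-quartile factors (0.0304) and without the filter on low counts (0.00354).

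Addback under EDTA had 1 member higher than Vector and 2 lower, against 30.0% of all tested genes called (16.1% higher, 14.0% lower), with a median of 0.14 beside 0.01. The share of members called was here also close to that of all genes. TFRC was again 2.64-fold higher (log2 1.4, SE 0.14, adjusted p = 3.28e-05), while STEAP3 was 1.79-fold lower (log2 -0.84, SE 0.17, adjusted p = 0.00314) and SLC39A14 1.63-fold lower (log2 -0.70, SE 0.11, adjusted p = 0.000841). FTH1 (0.14), FTL (0.40), SLC11A2 (0.21), NCOA4 (-0.22), IREB2 (-0.14) and ACO1 (0.19) did not pass. Of these, FTL passed without B4-4 NA 1 (0.000978) or B4-4 NA 2 (0.000867), NCOA4 likewise (0.0222 and 0.0275), and SLC11A2 without Addback EDTA 1 (0.042). In the 4 compared libraries alone FTL passed (0.03), as it did without the filter on low counts (0.00419), and NCOA4 passed with DESeq2 (0.0449) and upper-quartile factors (0.0389).

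Against B4-4 under EDTA, Addback had 4 members higher and 2 lower, against 14.1% of all tested genes called (6.54% higher, 7.54% lower), with a median of 0.0 beside 0.01 for all genes. FTL was 1.72-fold higher (log2 0.78, SE 0.16, adjusted p = 0.00882), lost without B4-4 EDTA 1 (0.0955) or B4-4 EDTA 2 (0.0657), and FTH1 1.55-fold higher (log2 0.63, SE 0.10, adjusted p = 0.00169). SLC39A14 was 1.57-fold lower (log2 -0.65, SE 0.11, adjusted p = 0.00326). For TFRC the estimate was no difference (log2 0.0, SE 0.14, adjusted p = 0.993). NCOA4 (0.31, adjusted p = 0.0363), ACO1 (0.31, 0.045) and IREB2 (-0.40, 0.0438) passed narrowly. Each was lost without any one of the 8 libraries of Vector NA, B4-4 EDTA, Addback NA and Addback EDTA, and IREB2 also without either Vector EDTA library. The adjusted p then ran from 0.0563 to 0.261 for NCOA4, from 0.0696 to 0.238 for ACO1 and from 0.0532 to 0.22 for IREB2. ACO1 was also lost in the 4 compared libraries alone (0.055), NCOA4 and ACO1 without the filter on low counts (0.0731 and 0.115), and IREB2 with upper-quartile factors (0.0646).

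**Figure D4:**
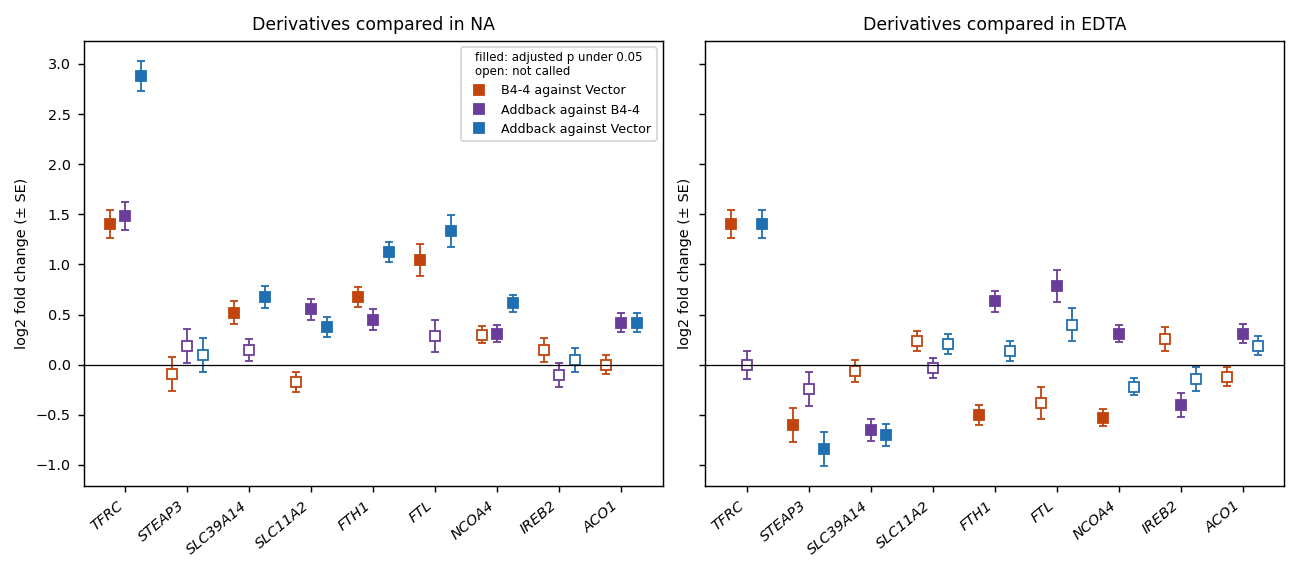
Fitted log2 fold changes between derivatives for the 9 tested iron genes under NA (left) and EDTA (right): B4-4 against Vector (orange), Addback against B4-4 (purple) and Addback against Vector (blue). Bars are standard errors and filled squares have an adjusted p under 0.05. TFRC reaches 2.88 in Addback against Vector under NA, and under EDTA lies at 1.4 in both B4-4 and Addback against Vector.

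TFRC and ferritin RNA rose together from NA to EDTA in Vector, TFRC and FTH1 fell together in Addback, and in B4-4 the receptor rose while both chains fell. These B4-4 changes passed in the fit of all groups but not in the B4-4 libraries alone. The ratio of TFRC to FTH1 counts was 0.142 and 0.133 in Vector NA, 0.185 and 0.146 in Vector EDTA, and 0.258 and 0.195 in B4-4 NA. It was 0.62 and 0.601 in B4-4 EDTA, 0.465 in both Addback NA libraries, and 0.365 and 0.427 in Addback EDTA. B4-4 EDTA was the group in which the receptor stood highest relative to the heavy chain. Over the 12 libraries, TFRC and FTH1 had a Pearson r of 0.596 (Spearman 0.545) and TFRC and FTL one of 0.668 (0.657) in log2 CPM. FTH1 and FTL had the highest r of the pairs of members, at 0.947 (0.902), and NCOA4 followed FTH1 at 0.842 (0.678). These correlations describe 12 libraries that fall into 6 groups of 2, so the points are not independent. The ratio of FTH1 to FTL counts lay between 2.01 and 2.68 in all libraries but B4-4 NA 1, where it was 1.77.

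**Figure D5:**
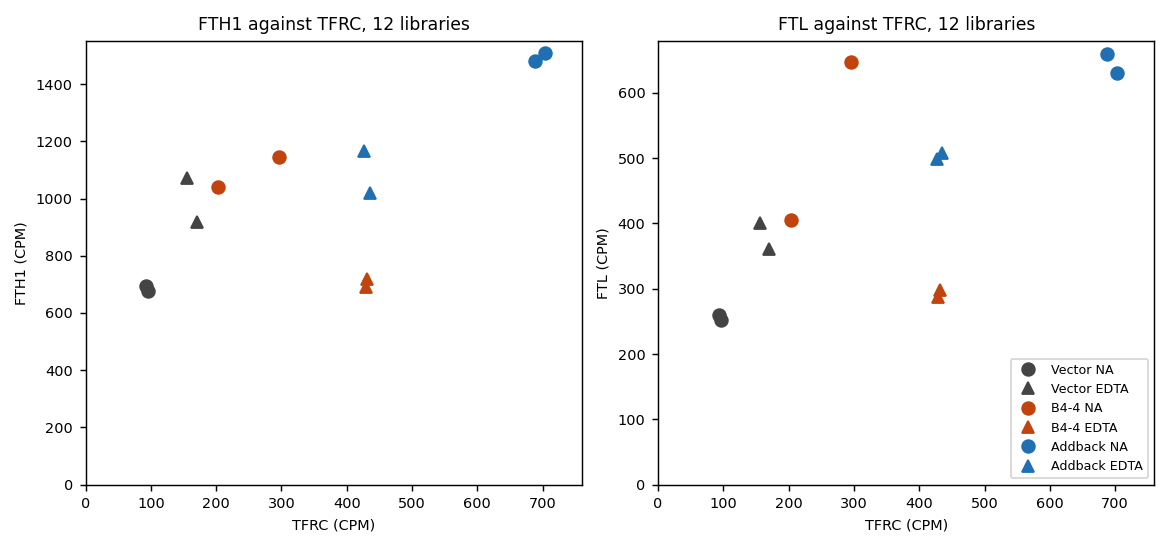
CPM of FTH1 (left) and FTL (right) against CPM of TFRC, 1 point a library (circles NA, triangles EDTA; grey Vector, orange B4-4, blue Addback). The B4-4 EDTA libraries combine TFRC at 429 and 431 CPM with FTH1 at 692 and 718 CPM, while the Addback EDTA libraries have FTH1 at 1168 and 1019.7 CPM at a like TFRC level.

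The genes whose log2 CPM was most like that of each member were sought among the 10509 tested genes that averaged 5 CPM or more, over the 12 libraries. For TFRC they were PIGW (r = 0.9798) and CYB561 (0.9722), for FTH1 SEMA6B (0.9683) and PLPP3 (0.9588), and for FTL FTH1 itself (0.9467) and C1QTNF1 (0.946). NCOA4 was most like SOD2 (0.9741), the mitochondrial superoxide dismutase, and TOPORS (0.9626). ACO1 was most like GGT5 (0.9933) and DPYSL2 (0.9422), SLC11A2 like CDC42EP1 (0.9419) and MYOF (0.9185), and SLC39A14 like MAGT1 (0.9207) and EPB41L2 (0.9133). IREB2 went with WDR43 (0.9365) and WDCP (0.8996), and STEAP3 with CNOT3 (0.9265) and DUSP10 (0.9019). Ranked by Spearman's rho, PIGW, C1QTNF1, WDR43 and GGT5 stayed among the closest 2 of their member and the others did not. With so many genes and 6 pairs of libraries, values this high describe a shared pattern and were not tested.

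Promoter windows of 250 bases before the RefSeq start (GRCh38.p14) were matched for 8 of the 10 members. FTH1 and SLC39A14 had no window and were not searched. SLC11A2, NCOA4 and IREB2 had several windows, and the shares over all genes are of windows rather than genes. The core ACGTG of hypoxia-inducible factor sites was searched on both strands and lay in the windows of TFRC and FTL, and in 6501 of 35116 windows of all genes (18.5%). The core TGACNNNGC of antioxidant response elements lay in 3830 of them (10.9%) and in 0 of the members' windows. A missing match says only that these letters are not in the 250 bases searched, and not that the gene has no such element elsewhere. No match was tested as a binding site.

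Of 63 other iron genes, covering carriers, reductases, oxidases, chaperones, sensors, heme and iron-sulfur cluster genes, 49 were tested. With EDTA, 4 rose, 6 fell and 39 did not pass in Vector, 5, 9 and 35 in B4-4, and 3, 4 and 42 in Addback. Of all tested genes, 15.3%, 19.9% and 16.9% were called in these comparisons. The median log2 changes of the other iron genes were -0.01, 0.06 and 0.05. Beside them stand the members' medians of 0.54, -0.04 and -0.45. CYBRD1, the duodenal-type ferrireductase, had the smallest p of the genes that rose in Vector and stood there at 43.9 and 44.5 CPM in NA and at 84.5 and 76.3 in EDTA. It rose 1.82-fold in Vector (log2 0.86, SE 0.11, adjusted p = 0.000311) and fell in B4-4 (log2 -0.79, SE 0.11, adjusted p = 0.000814) and Addback (log2 -0.75, SE 0.11, adjusted p = 0.000871). The B4-4 fall was lost in the 4 B4-4 libraries alone (0.0549). Its EDTA effect differed from that in Vector by -1.65 in B4-4 (SE 0.15, adjusted p = 3.1e-05) and by -1.61 in Addback (SE 0.15, adjusted p = 2.65e-05).

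PROM2, a membrane protein linked to the export of ferritin in vesicles, held 40.4 and 40.8 CPM in Vector NA, against 4.73 and 4.48 in Vector EDTA. It was at 13.6 and 15.8 CPM in B4-4 NA, at 5.64 and 5.75 in B4-4 EDTA, and between 4.21 and 5.15 in the 4 Addback libraries. The fall with EDTA was 8.81-fold in Vector (log2 -3.14, SE 0.15, adjusted p = 5.88e-07) and 2.58-fold in B4-4 (log2 -1.37, SE 0.15, adjusted p = 0.000213). In Addback PROM2 was already low under NA and its change was -0.10 (SE 0.17, adjusted p = 0.74). HEPH, the multicopper oxidase that works with ferroportin, fell with EDTA in Vector (log2 -1.69, SE 0.32, adjusted p = 0.00415; 0.0514 without Vector EDTA 1) from 6.56 and 6.17 to 1.95 and 1.99 CPM. In B4-4 it rose (log2 1.58, SE 0.33, adjusted p = 0.00762) from 1.21 and 2.3 to 5.17 and 5.27 CPM, a call lost without B4-4 EDTA 1 (0.0539) or B4-4 EDTA 2 (0.053) and in the 4 B4-4 libraries alone (0.0736). LCN2, the siderophore carrier lipocalin 2, held 2.35 and 2.37 CPM in Vector NA but was 0 in both Vector EDTA libraries, at least 34.7-fold lower against a limit of 3 counts over the group.

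Between derivatives under NA, the other iron genes counted 0 higher, 4 lower and 45 not passing in B4-4 against Vector, and 12, 12 and 25 in Addback against Vector. Of all tested genes, 7.16% and 36.1% were called in these comparisons. Among the iron genes higher in Addback than in Vector were LYRM4 of the mitochondrial iron-sulfur cluster assembly complex (2.1-fold, adjusted p = 0.000175) and the mitochondrial iron importer mitoferrin-1 (SLC25A37, 1.65-fold, 0.000233). Mitoferrin-2 (SLC25A28) went the other way, 1.94-fold lower (adjusted p = 0.000458), as did HFE, the partner of the transferrin receptors, 2.03-fold lower (0.000323). Under EDTA the counts were 11, 8 and 30 in B4-4 against Vector and 12, 10 and 27 in Addback against Vector. Of all tested genes, 43.4% and 30.0% were called in these comparisons. In B4-4 against Vector, CYBRD1 was 2.96-fold lower (adjusted p = 1.55e-06) and the iron chaperone PCBP2 1.90-fold lower (6.07e-05), while the metalloreductase STEAP1 was 2.63-fold higher (0.000147).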

How the data were processed

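The deposited values are raw read counts, whole numbers for each Ensembl gene. Per the labels' protocols, libraries were stranded, polyA-selected and read as paired ends. The submitters' processing notes name TopHat2 2.1.1, SAMtools 1.4.1 and featureCounts 1.5.3, and list GRCh38, hg19 and hg38 as builds with no role. The sources used here do not give the annotation or the strand setting used in counting. Of 58233 genes, 57392 matched a symbol.

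Counts went into edgeR 4.0.16 under R 4.3.3. Genes were filtered with filterByExpr over the 6 groups (15749 kept, at least 99.87% of each total) and scaled with TMM. A robust quasi-likelihood fit of group means over all 12 libraries gave 12 contrasts, with Benjamini-Hochberg adjustment over all tested genes. Standard errors are the log2 change divided by the square root of F. The fit was also run on simulated counts in which a gene had the same spread in every group. The pairs here differ in spread (3% to 24.1%), so that run does not test the calls under such a difference. Alternatives were other scalings, no filter, DESeq2 1.42.0, a replicate block, the compared groups alone and each library left out. In DESeq2, genes without an adjusted p were left as such.

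The members, lists and rules were chosen with earlier results of these data known. From the other iron genes, up to 3 called genes a direction with the smallest p could be named in a comparison, and the 2 genes most like each member by Pearson's r. A gene that this rule would name is not reported here. The search for iron-responsive sites (1 form) and for 2 promoter motifs was added after the files were seen. Coordinates and lengths are from GENCODE 29 on GRCh38, 1-based. Intervals and limits from 3 counts cover counting error only.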

Additional observations from a re-analysis of the deposited data

Results flagged for a closer look

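The effect of EDTA differed between derivatives, by the test of the difference itself, for 13 combinations of an iron gene and a pair of derivatives. All 13 differences are negative, that is, lower in the derivative named first. B4-4 against Vector gave FTH1 (-1.17), FTL (-1.42), SLC39A14 (-0.58) and NCOA4 (-0.83) on the log2 scale. Addback against B4-4 gave TFRC (-1.47), SLC39A14 (-0.80) and SLC11A2 (-0.58). Addback against Vector gave TFRC (-1.48), FTH1 (-0.99), FTL (-0.93), SLC39A14 (-1.38), NCOA4 (-0.83) and STEAP3 (-0.94). The 3 pairs share libraries, so these are not 13 separate observations. Of all tested genes, 27.0% were called for B4-4 against Vector (12.6% lower) and 8.78% for Addback against B4-4 (4.57% lower). For Addback against Vector 24.2% were called (10.8% lower). Of the 13, those of SLC39A14 and SLC11A2 against B4-4, of SLC39A14 in B4-4 against Vector, and of FTL and STEAP3 in Addback against Vector were lost without certain single libraries, with the values given above. SLC39A14 is the gene found in each of the 3 pairs. The groups also differ in how far their 2 libraries lie apart (3% to 24.1%), and the part of that in these differences was not tested. With 2 libraries a group, no test was made of whether a library stands apart within its group.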

How the results depend on the processing

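Of 108 combinations of a tested member and a comparison, 57 passed, 31 of these without any single library and 28 under every alternative and library. Of all tested genes, 7.16% to 43.4% were called in a comparison, as given above. No member's call turned direction. A value that passed under neither setting and changed sign was counted as unchanged. The relative log expression scaling ended 1 call and gave 0, upper-quartile factors 2 and 3, no filter 5 and 7, DESeq2 0 and 4, and the compared groups alone 14 and 8. In those groups alone, 8 members passed for EDTA in Vector (5 in the fit of all groups), 0 for EDTA in B4-4 (5), 0 for B4-4 against Vector under NA (4), 7 under EDTA (4) and 2 for Addback against B4-4 under NA (5). Counts over all genes moved in the same comparisons, so these shifts are not particular to the members. In the order given, they went from 2416 to 4664, from 3138 to 308 and from 1128 to 6. The last 2 went from 6831 to 8415 and from 3723 to 1288.

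Leaving out 1 library gave 3 to 8 members for EDTA in Vector, 2 to 5 in B4-4 and 1 to 7 in Addback. For B4-4 against Vector it gave 1 to 5 under NA and 3 to 7 under EDTA, for Addback against B4-4 2 to 6 under each treatment, and for Addback against Vector 6 to 7 and 3 to 5. For the differences of EDTA effects it gave 3 to 5 (B4-4 and Vector), 1 to 4 (Addback and B4-4) and 4 to 6 (Addback and Vector). A group left with 1 library was assumed to vary like the others. Counts over all genes also changed when 1 library was left out, as given below, so these ranges are not particular to the members.

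Deviations of same-numbered libraries correlated between -0.0513 and 0.0748 over the pairs of groups, so no shift shared by replicate number was seen. This cannot show whether same-numbered libraries came from a shared culture or day, which the labels do not say. A replicate block ended 1 call, that of ACO1 in Addback against B4-4 under EDTA (0.0525). Upper-quartile factors moved the median of all genes to -0.118 for the difference between B4-4 and Vector, and the share of calls that were higher from 53.4% to 42.0%, and from 49.6% to 36.8% for EDTA in B4-4.

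Counts over all genes depended on single libraries. Among the fits that left out 1 library, they were highest without B4-4 NA 1 in each of the 12 comparisons. For EDTA in Vector, 2416 genes became 708 without Vector NA 2, 4026 without B4-4 NA 1 and 4664 in the compared groups alone. For EDTA in B4-4, 3138 became 748 without B4-4 EDTA 1 and 308 in the compared groups alone, and for EDTA in Addback 2666 became 628 without Addback NA 1 and 4307 without B4-4 NA 1. For B4-4 against Vector under NA, 1128 became 80 without Vector NA 1, 3353 without B4-4 NA 1, 1874 without the filter and 6 in the compared groups alone. Under EDTA 6831 became 4425 without B4-4 EDTA 2. For Addback against B4-4, 3723 became 1353 without Addback NA 1 and 1288 in the compared groups alone under NA, and 2217 became 691 without B4-4 EDTA 1 and 3777 without B4-4 NA 1 under EDTA. For Addback against Vector, 5681 became 3137 without Vector NA 2 and 9436 in the compared groups alone under NA, and 4728 became 2739 without Vector EDTA 1 under EDTA. Of the differences of EDTA effects, 4249 (B4-4 and Vector) became 2385 without Vector NA 2, and 3818 (Addback and Vector) 2142 without Vector NA 1. The 1383 of Addback and B4-4 became 405 without Addback NA 1, 3031 without B4-4 NA 1, 2103 without the filter and 640 in the compared groups alone. ITGB4 changed sign there, from -0.02 (not called) to 0.42 without B4-4 NA 1, with -0.68 without B4-4 NA 2. The cause of these shifts was not tested. Depth did not limit the 9 tested members, whereas for SLC40A1 only a limit can be given.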
